A study of Mus musculus with 8 samples.

Results

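Mitochondrial ribosomal proteins are the protein subunits of the ribosome that works inside mitochondria. The 74 genes described here are those whose symbol in the platform's probe annotation is Mrpl or Mrps followed by a number. Mrpl is a large subunit name and Mrps a small subunit name, and a name need not give the place of the protein. They are 74 of the 12393 genes measured, 47 named Mrpl and 27 named Mrps. Each gene was read from the probe set with a single gene symbol and the highest mean over the 8 arrays. Mrpl30 and Mrpl53 were found only on probe sets that several genes share and were not analysed here.

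The mitochondrial ribosome translates the few messenger RNAs encoded by mitochondrial DNA, which specify core subunits of the respiratory chain and of ATP synthase. Its ribosomal RNAs come from mitochondrial DNA, but all its proteins are encoded in the nucleus, made in the cytosol and imported. Some subunits have counterparts in bacterial ribosomes, and others occur only in mitochondria. Muscle is rich in mitochondria, and its respiratory chain genes are highly expressed.

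RNA levels were measured on Affymetrix arrays in mouse soft tissue sarcomas, a model of undifferentiated pleomorphic sarcoma, and in muscle. The Ca/Ca sarcomas came from Braf Ca/Ca, p53 Fl/Fl mice (4 arrays, tumours numbered 1, 2, 3 and 5), and the Ca/+ sarcomas from Braf Ca/+, p53 Fl/Fl mice (2 arrays, tumours numbered 1 and 2). The muscles were hind limb muscle without tumour, 1 from a Ca/Ca and 1 from a Ca/+ mouse, and they carried the same conditional alleles with both p53 copies floxed. Tumours were started by injecting an adenovirus that encodes Cre recombinase, so sarcoma and muscle differ in tissue and in Cre exposure together. Age is not given in the labels, and the labels do not say that the arrays are separate animals, so p-values measure only the spread between these samples.

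The muscle label was checked against 16 genes of the muscle fibre, and all 16 were lower in sarcoma (limma, Benjamini-Hochberg adjusted p under 0.05), with a median log2 difference of -4.52. Their mean log2 signal ran from 6.81 to 9.14 in the sarcomas, so fibre transcripts were still read there, against 12.76 and 12.85 in the muscles. Of 17 cell division genes 12 were higher in sarcoma and none lower. The muscles differed too: 15 macrophage markers averaged 9.70 in the Ca/Ca and 8.25 in the Ca/+ one. Braf itself had log2 signals of 4.45 to 5.07 in the sarcomas and of 4.50 and 4.62 in the muscles, and whether its probes lie in a floxed part was not tested.

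Most mitochondrial ribosomal protein genes differed little between sarcoma and muscle, and those that differed were mostly lower in sarcoma. Of the 74 genes, 13 were lower in sarcoma, 3 were higher and 58 did not pass the test (limma, adjusted p under 0.05 over all genes). That is 21.6% of them called in either direction, where 26.3% of all 12393 genes were called. By direction 13.2% of all genes were lower and 13.1% higher. Of the 74 genes 73 lie in the brighter 50% of genes. With that set tested alone 13 of the 73 were lower and 3 higher. Of its 6196 genes 37.2% were called, 884 lower and 1422 higher. The median log2 difference, sarcoma minus muscle, was -0.10 for the 74 genes and 0.03 for all genes. In the brighter set the median was -0.09 for the 73 and 0.20 for all its genes. The range of the 74 ran from -1.14 to 0.70. Only 3 of the 74, or 4.05%, differed by at least 2-fold, where 18.4% of all genes did. In bulk tissue, fewer cells of a type and less RNA per cell cannot be told apart.

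The choice of scaling moved this count. With cyclic loess 21 of the genes were lower and none higher, where 24.1% of all genes were called. With the arrays centred on the cytosolic ribosomal proteins 30 were lower and none higher, where 33.0% of all genes were called. Under those scalings the share of all called genes that were higher in sarcoma was 38.7% and 16.0%, against 49.9% as deposited. The second centring moved the median of all genes to -0.31 and that of the 74 genes to -0.43.

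**Figure D1:**
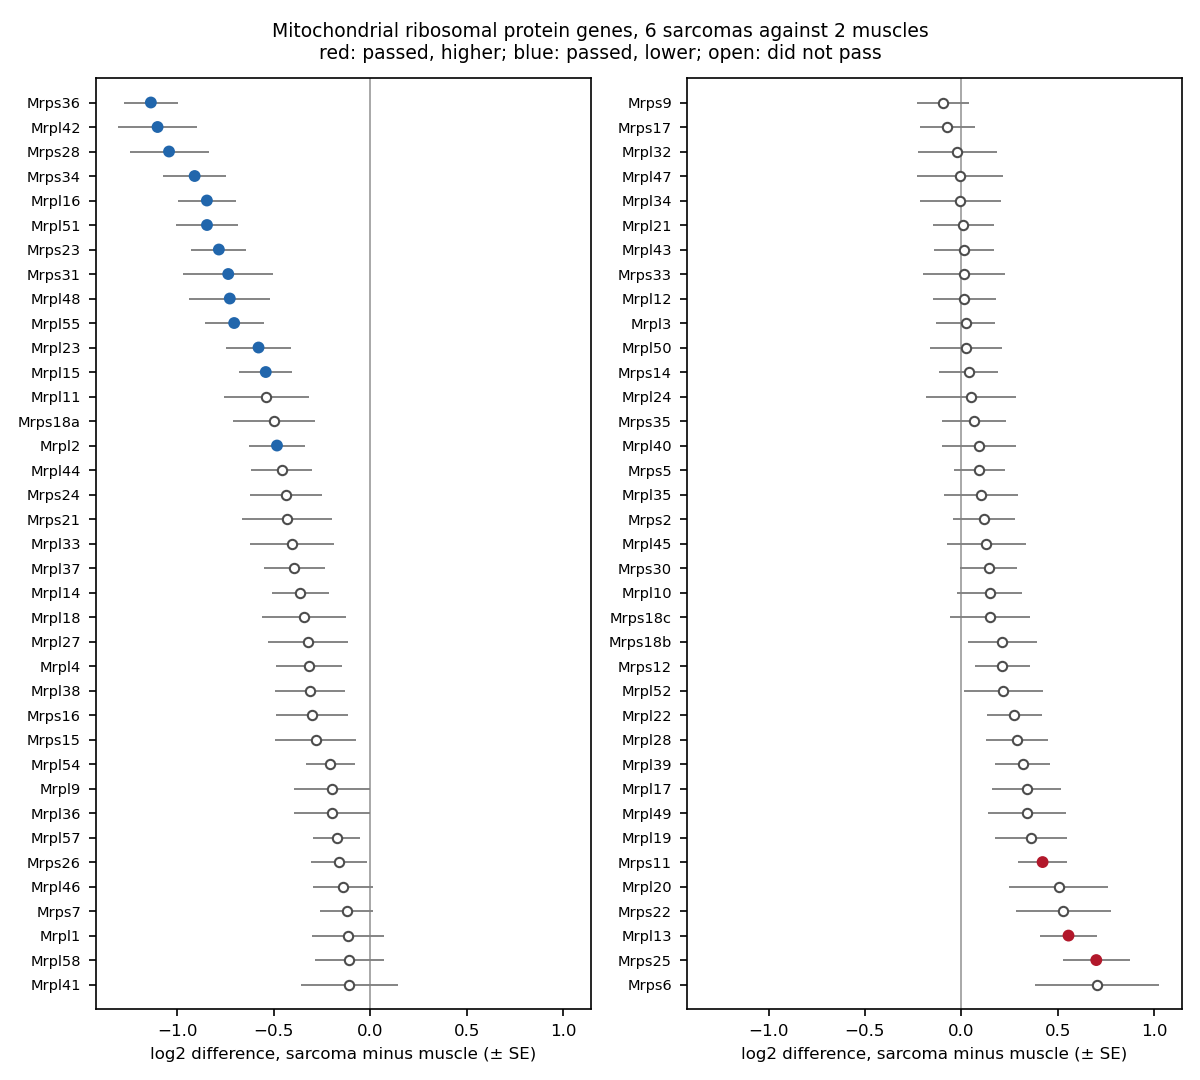
The plot of log2 differences, sarcoma minus muscle, shows the 74 mitochondrial ribosomal protein genes as points with bars of 1 standard error, from 6 sarcomas and 2 muscles. Values run from -1.14 to 0.70, with 13 genes lower and 3 higher past the threshold.

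Of 47 genes with a large subunit name (Mrpl) 8 were lower in sarcoma and 1 was higher (median difference -0.11). That is 19.1% called, where 26.3% of all genes were called. Mrpl42, a subunit known only from mitochondrial ribosomes, had log2 signals of 9.02 at the lowest, 9.33 at the median and 9.73 at the highest of the 6 sarcomas, against 10.52 and 10.35 in the Ca/Ca and Ca/+ muscles. Every sarcoma lay below both muscles. The difference was -1.10 (SE 0.20, limma adjusted p = 0.0057), which is 2.15-fold lower in sarcoma.

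Mrpl16, a counterpart of a bacterial large subunit protein, ran from 7.93 through a median of 8.11 to 8.38 in the sarcomas, against 8.90 and 9.09 in the Ca/Ca and Ca/+ muscles. Its groups did not overlap, and the difference was -0.85 (SE 0.15, adjusted p = 0.00475). Mrpl51, found only in mitochondrial ribosomes, ran from 9.30 through 9.49 to 9.74 in the sarcomas, against 10.25 and 10.44 in the muscles. Again all sarcomas were below both muscles, with a difference of -0.85 (SE 0.16, adjusted p = 0.00625), and its 3 probe sets all had a negative difference.

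The other large subunit genes that were lower in sarcoma differed by less. They were Mrpl48 (-0.73, adjusted p = 0.0349), Mrpl55 (-0.71, adjusted p = 0.0109), Mrpl23 (-0.58, adjusted p = 0.036), Mrpl15 (-0.54, adjusted p = 0.0201) and Mrpl2 (-0.48, adjusted p = 0.0418). Mrpl23, Mrpl15 and Mrpl2 have bacterial counterparts, and the protein of Mrpl2 lies near the site of peptide bond formation. The 7 probe sets of Mrpl15 differed with brightness. The 4 brighter ones, with means of 7.56 to 8.80 over the arrays, were all called lower, with differences from -0.60 to -0.51. The other 3, with means of 2.27 to 4.28, had positive differences of up to 0.53 and were not called.

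Mrpl13, a counterpart of a bacterial large subunit protein, was the large subunit gene that was higher in sarcoma. Its log2 signals were 9.69 at the lowest, 9.96 at the median and 10.16 at the highest of the sarcomas, against 9.34 and 9.42 in the Ca/Ca and Ca/+ muscles. All sarcomas lay above both muscles, and the difference was 0.56 (SE 0.15, adjusted p = 0.0259). Its 3 probe sets were all positive, from 0.42 to 0.56.

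Other well known large subunit members did not pass the test on the probe set used. Mrpl12, a protein of the flexible stalk that recruits translation factors, ran from 9.01 through 9.31 to 9.53 in the sarcomas, against 9.12 and 9.45 in the muscles. The groups overlapped, with a difference of 0.01 (adjusted p = 0.962). Mrpl44 has a fold related to ribonucleases, and its human gene is mutated in an inherited cardiomyopathy. It lay below both muscles in all 6 sarcomas, with a difference of -0.46 (adjusted p = 0.0665). That is its brightest probe set, with a mean of 8.23 over the arrays. Its other 2 probe sets, with means of 7.58 and 6.21, were called lower in the limma fit over probe sets. Their differences were -0.59 (adjusted p = 0.0303) and -0.96 (adjusted p = 0.00945). Mrpl58, a peptidyl-tRNA hydrolase built into the large subunit, differed by -0.11 (adjusted p = 0.702). The smallest differences were those of Mrpl34 (-0.01), Mrpl47 (-0.01) and Mrpl21 (0.01). A dimmer probe set gave 0.51 for Mrpl34 (mean 5.47 over the arrays) and another -0.37 for Mrpl21 (mean 5.00), neither called.

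Of 27 genes with a small subunit name (Mrps) 5 were lower in sarcoma and 2 were higher (median difference -0.07). That is 25.9% called, near the 26.3% of all genes. Mrps28 had log2 signals from 7.59 through a median of 7.84 to 8.36 in the sarcomas, against 8.84 and 9.04 in the Ca/Ca and Ca/+ muscles. No sarcoma reached either muscle, and the difference was -1.04 (SE 0.20, adjusted p = 0.00726), or 2.06-fold lower. Mrps34, found only in mitochondrial ribosomes, ran from 7.75 through 8.01 to 8.25 in the sarcomas, against 8.81 and 9.0 in the muscles. Its groups did not overlap either, with a difference of -0.91 (SE 0.16, adjusted p = 0.00507). Mrps23 (-0.79, adjusted p = 0.00532) and Mrps31 (-0.74, adjusted p = 0.0495) were also lower, and both probe sets of Mrps23 were called.

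The lowest of all 74 genes against muscle was Mrps36. It carries a small subunit name, but its protein is a component of the oxoglutarate dehydrogenase complex of the citric acid cycle rather than of the ribosome. Its log2 signals were 7.62, 7.86 and 8.11 at the lowest, median and highest of the sarcomas, against 8.96 and 9.03 in the Ca/Ca and Ca/+ muscles. All sarcomas were below both muscles, by 1.14 on average (difference -1.14, SE 0.14, adjusted p = 0.00094), or 2.20-fold. Without Mrps36 the counts were 12 lower and 3 higher of 73 genes, or 20.5% called.

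Both small subunit genes that were higher in sarcoma depended on the probe set chosen. Mrps25 ran from 7.49 through 7.85 to 8.10 in the sarcomas, against 7.11 in each muscle, and differed by 0.70 (SE 0.17, adjusted p = 0.0189). Its other 2 probe sets had differences of -0.05 and -0.34, at lower means over the arrays of 5.63 and 4.24 against 7.63. Mrps11, a counterpart of a bacterial small subunit protein, ran from 6.88 through 6.97 to 7.12, against 6.46 and 6.70 in the muscles, and differed by 0.42 (adjusted p = 0.0409). Its other probe set gave -0.17 but was dim, with a mean of 3.00 over the arrays against 6.89. Neither gene overlapped between the groups on the probe set used. Mrps12, whose bacterial counterpart is part of the decoding centre, differed by 0.21 and did not pass (adjusted p = 0.318).

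Over the 33 genes with more than 1 probe set, all probe sets shared a sign in 16 genes and split in 17, and no gene had probe sets called in opposite directions. Dim probe sets count here as bright ones do, so a split need not mean that the bright ones disagree. The sarcomas lay entirely below both muscles in 18 of the 74 genes and entirely above in 6, together 32.4%, where 38.9% of all genes did not overlap. Of 44 genes with a bacterial counterpart 4 were lower in sarcoma and 2 higher (13.6% called), with a median difference of -0.01. Of 29 genes of mitochondrial ribosomes only 8 were lower and 1 higher (31.0% called), with a median of -0.14. Over all genes 26.3% were called, 13.2% lower and 13.1% higher. The difference between these classes was not tested. Naming systems place Mrps28 differently, and without it 7 of 28 mitochondria-only genes were lower and 1 higher (28.6% called).

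**Figure D2:**
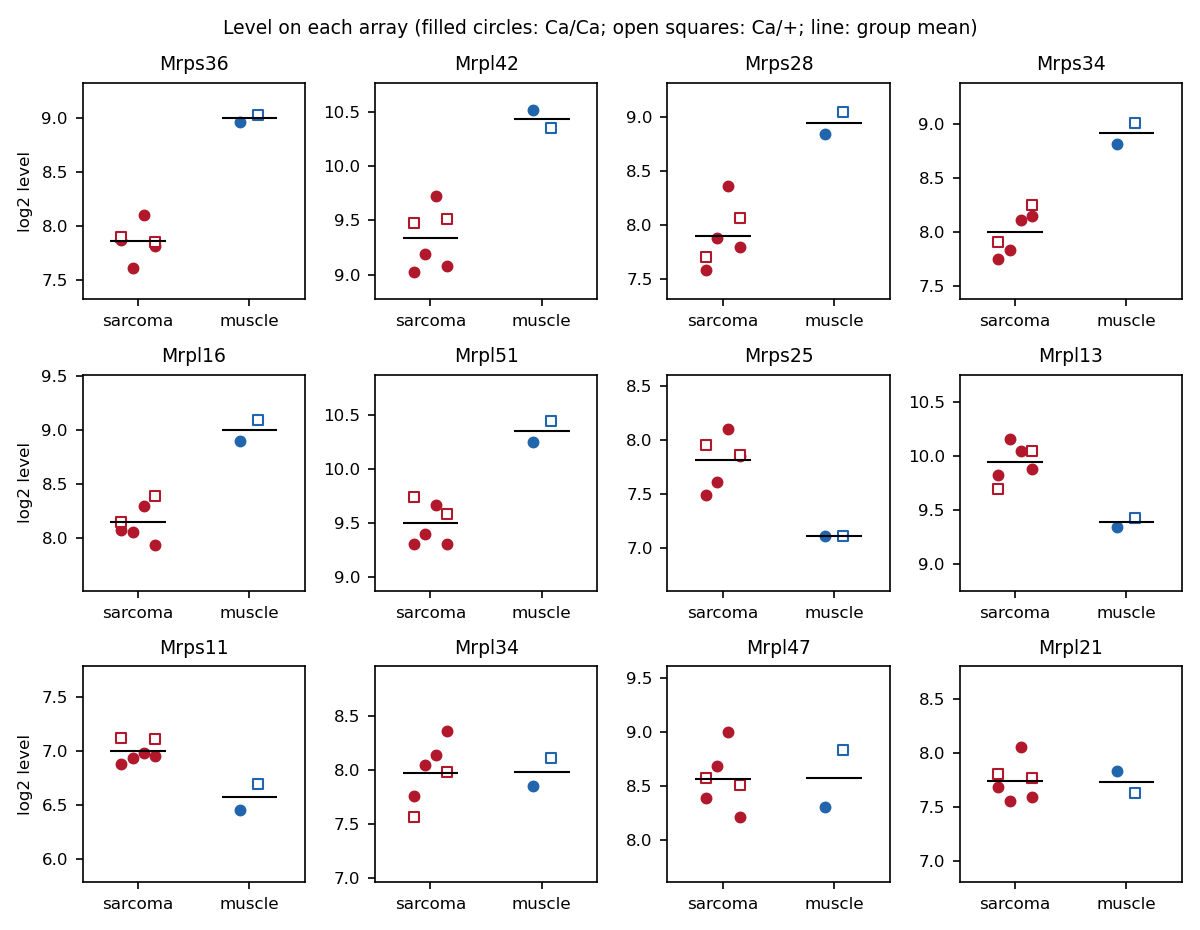
The plot of log2 signal by array shows 12 of the genes, each array as a point, with the sarcomas left of the muscles. Mrps36, Mrpl42, Mrps28, Mrps34, Mrpl16 and Mrpl51 have all 6 sarcomas below both muscles, and Mrps25, Mrpl13 and Mrps11 have all 6 above.

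These calls rested heavily on the muscles, of which there were 2. Of the 13 lower genes only Mrps36 and Mrpl42 kept the call without any 1 array, and none of the 3 higher genes did. Without the Ca/+ muscle the median difference was 0.00 for the 74 genes and 0.05 for all genes. Without the Ca/Ca muscle it was -0.22 for the 74 genes and 0.01 for all genes. Each of these fits leaves 1 muscle, and calls over all genes fell as well. Leaving out any 1 array left at most 2 of the higher genes. No called gene turned its sign under the 19 alternatives run.

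The respiratory chain genes, whose mitochondrially encoded partners this ribosome makes, differed far more. Of 75 nuclear oxidative phosphorylation subunits 62 were lower in sarcoma (82.7%, where 13.2% of all genes were lower), with a median difference of -0.95. The 1 that was higher was the ATP synthase inhibitor Atpif1 (1.21, limma adjusted p = 0.02, named after its values were seen). Its log2 signals were 9.19 to 9.91 in the sarcomas, against 8.83 and 7.66 in the Ca/Ca and Ca/+ muscles, so the muscles differed widely. The mean log2 signal of the 75 genes lay between 9.76 and 10.20 in the 6 sarcomas, against 11.02 and 11.12 in the Ca/Ca and Ca/+ muscles. The mean of the 74 ribosomal genes was 8.35 ± 0.14 in the sarcomas (SD, n = 6) and 8.49 ± 0.12 in the muscles (SD, n = 2), with overlap. Of 39 cytosolic ribosomal protein genes 8 were higher (20.5%, where 13.1% of all genes were higher) and none lower, with a median difference of 0.28. The differences between these lists were not tested.

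**Figure D3:**
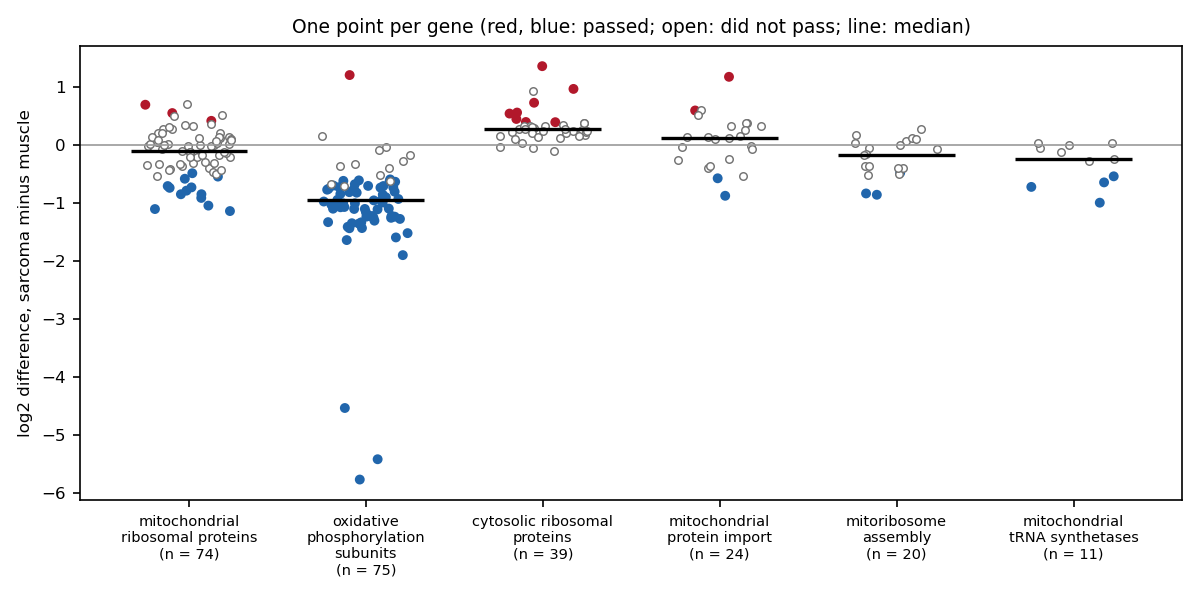
The plot of log2 differences, sarcoma minus muscle, sets the 74 mitochondrial ribosomal protein genes beside other fixed lists, each point a gene, filled where it passed the test, and each line the list's median. The medians are -0.10 for the 74 genes, -0.95 for 75 oxidative phosphorylation subunits and 0.28 for 39 cytosolic ribosomal proteins.

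Other genes of mitochondrial translation were mostly lower in sarcoma where they passed the test. Dap3, a GTP-binding small subunit protein that does not carry an Mrp name, was higher in sarcoma (0.63, SE 0.12, adjusted p = 0.00724), with sarcoma signals of 9.39 to 9.66 against 8.88 and 8.91 in the muscles. The groups did not overlap. Of 20 genes of mitochondrial ribosome assembly 3 were lower and none higher. That is 15.0%, near the 13.2% of all genes that were lower and below the 26.3% called in either direction. Among the 3 were the ribosomal RNA methyltransferase Nsun4 (-0.86, adjusted p = 0.00581) and the GTPase Mtg1 (-0.83, adjusted p = 0.00339). Of 8 translation factors 1 was lower (12.5%, also near the 13.2% of all genes), Gfm2, which recycles the ribosome after termination (-1.18, adjusted p = 0.00111). Of 11 mitochondrial tRNA charging genes 4 were lower and none higher, or 36.4% called, where 13.2% of all genes were lower. They included Gatc (-0.99, adjusted p = 0.00667) and Qrsl1 (-0.72, adjusted p = 0.00646), subunits of the enzyme that completes glutamine tRNA.

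Of 11 known regulators of mitochondrial gene expression 3 were lower and 3 higher (54.5% called, where 26.3% of all genes were called). The coactivators Ppargc1a (-1.92, adjusted p = 8.15e-05) and Ppargc1b (-1.84, adjusted p = 0.0111) and their partner receptor Esrra (-0.99, adjusted p = 0.00848) were lower in sarcoma. The mean of Ppargc1a in the sarcomas, 3.41, is low: 15.1% of genes have a lower sarcoma mean, so its fold may be understated. The transcription factors Nrf1 (0.59, adjusted p = 0.00917), Yy1 (0.67, adjusted p = 0.0101) and Myc (1.24, adjusted p = 0.0211) were higher. Gabpa, Gabpb1, Pprc1, Max and Mycn did not pass, with differences of 0.29, 0.56, 0.40, 0.67 and 0.06.

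The promoters of the genes are known to carry sites for some of these factors, and they were read from RefSeq (GRCm38.p6) as windows from 250 bases before to 50 after each start. Windows were found for 65 of the 74 genes, 71 windows in all. The motifs searched, on both strands, were the NRF1 palindrome, given here by name alone, CCGGAAG for ETS factors such as GABP, AANATGGC for YY1, CACGTG for the E-box bound by MYC and AAGGTCA for the ERR receptors. No motif contains another, and 1 window can hold several. At least 1 NRF1, ETS or YY1 match stood in 62.0% of the 71 windows, where 25.3% of the 12566 windows of all genes measured held one.

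By motif, NRF1 matched in 16.9% of the windows of the 74 genes and in 7.96% of those of all genes, ETS in 33.8% and 14%, and YY1 in 28.2% and 7.02%. The E-box matched in 9.86% and 9.11%, and the ERR motif in 5.63% and 3.61%. Of the 15 windows of the 10 genes lower in sarcoma that have one, none held NRF1, 3 held ETS (Mrpl48, Mrpl51 and Mrps23) and 2 held YY1 (Mrpl42 and Mrpl51). Mrpl48 and Mrpl2 have several windows each in that count, and those of Mrpl2 overlap almost fully. Of the 54 windows of the genes that did not pass, from 53 genes, 12 held NRF1, 21 ETS and 17 YY1, and of the 2 windows of the higher genes 1 held YY1. Windows per gene thus differ between these sets, so their shares of windows are not directly comparable, and the difference was not tested. A match is a description of letters and not evidence that a factor binds.

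**Figure D4:**
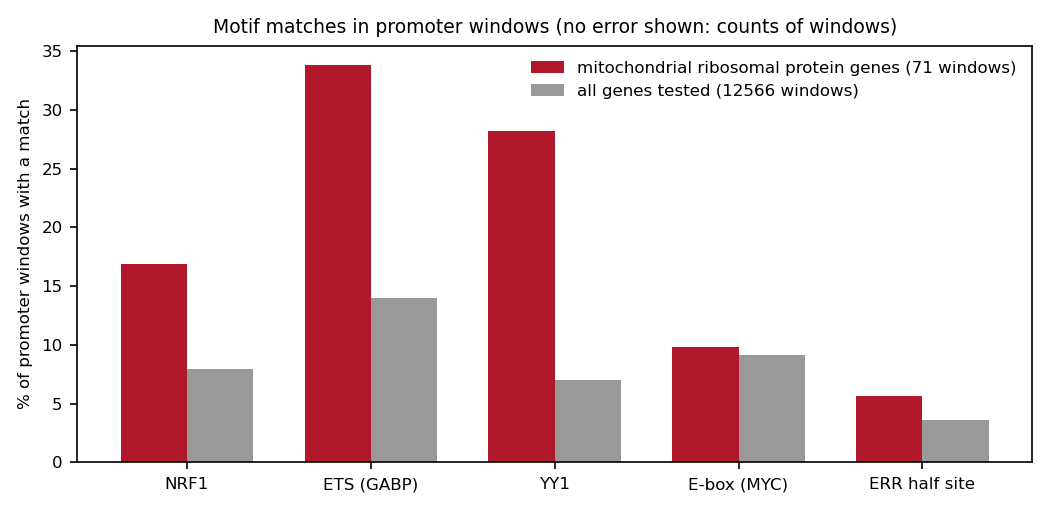
The bar plot shows the percentage of promoter windows holding each motif, with the bars of the 74 genes left of those of all genes measured. The bars differ most for YY1 (28.2% and 7.02%) and ETS (33.8% and 14%).

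The following promoter stretches, 200 bases before to 30 after the start on the gene's strand, are shown as examples of NRF1, ETS and YY1 matches. None of them holds an E-box or ERR match. That of Mrpl42 is shown for its place as the ribosomal protein gene with the largest fall. Capitals mark the motif letters, and the counts that follow are for the printed stretch. Mrpl45 (chr11:97315516-97315745, plus strand) has 3 NRF1 matches, and its protein holds the ribosome to the inner membrane. Mrpl58 (chr11:115403552-115403781, plus) has 2 ETS matches and 1 YY1 match. Mrpl12 (chr11:120484437-120484666, plus) has 1 NRF1 match, Mrps11 (chr7:78782931-78783160, plus) 1 YY1 match and Mrpl51 (chr6:125192000-125192229, plus) 1 ETS and 1 YY1 match. Mrpl42 (chr10:95501920-95502149, minus) has no match in the printed stretch, while its longer searched window holds YY1. The longer window of Mrpl12 also holds ERR.
Mrpl45: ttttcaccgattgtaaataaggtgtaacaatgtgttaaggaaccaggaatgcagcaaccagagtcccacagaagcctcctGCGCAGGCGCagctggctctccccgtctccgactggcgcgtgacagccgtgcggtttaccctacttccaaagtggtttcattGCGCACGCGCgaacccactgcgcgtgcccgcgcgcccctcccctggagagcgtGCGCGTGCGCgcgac
Mrpl58: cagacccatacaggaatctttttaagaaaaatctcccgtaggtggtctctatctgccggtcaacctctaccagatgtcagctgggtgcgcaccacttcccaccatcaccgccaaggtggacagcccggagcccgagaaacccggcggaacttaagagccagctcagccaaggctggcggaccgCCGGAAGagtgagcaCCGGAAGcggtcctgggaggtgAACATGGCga
Mrpl12: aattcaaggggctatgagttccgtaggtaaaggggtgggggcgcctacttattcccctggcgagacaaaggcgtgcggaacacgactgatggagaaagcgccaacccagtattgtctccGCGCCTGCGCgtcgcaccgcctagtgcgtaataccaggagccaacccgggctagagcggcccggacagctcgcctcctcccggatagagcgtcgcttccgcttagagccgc
Mrps11: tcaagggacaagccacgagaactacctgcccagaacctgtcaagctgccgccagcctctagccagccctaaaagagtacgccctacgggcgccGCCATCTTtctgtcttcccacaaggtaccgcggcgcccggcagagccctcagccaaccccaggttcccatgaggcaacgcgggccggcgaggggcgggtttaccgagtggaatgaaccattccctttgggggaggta
Mrpl51: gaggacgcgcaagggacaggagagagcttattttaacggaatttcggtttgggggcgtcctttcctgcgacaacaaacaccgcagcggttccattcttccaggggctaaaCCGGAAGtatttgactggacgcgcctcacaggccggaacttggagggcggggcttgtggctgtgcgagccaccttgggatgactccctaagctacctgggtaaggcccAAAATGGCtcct
Mrpl42: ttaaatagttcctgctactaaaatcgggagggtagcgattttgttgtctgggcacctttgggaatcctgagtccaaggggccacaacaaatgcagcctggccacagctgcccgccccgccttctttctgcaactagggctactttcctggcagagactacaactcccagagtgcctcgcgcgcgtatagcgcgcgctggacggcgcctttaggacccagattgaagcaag

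Within the sarcomas the 74 genes tended to be high or low together in the same tumours. Ca/Ca sarcoma 1 was the lowest of the 6 in 32 of the 74 genes (43.2%), and Ca/Ca sarcoma 5 in 24 (32.4%). Ca/Ca sarcoma 3 was the highest in 37 (50%) and Ca/+ sarcoma 2 in 23 (31.1%). Over all genes the same tumours were lowest in 16.2% and 20.5% and highest in 21.5% and 15.6%. The pattern was not particular to the 74 genes. Ca/Ca sarcomas 3 and 1 also had the highest and lowest mean of the oxidative phosphorylation subunits (10.20 and 9.76) and of 24 mitochondrial protein import genes (9.09 and 8.75). For the mitochondrial tRNA charging genes Ca/Ca sarcoma 3 was instead the lowest, at 5.95. The median SD among the sarcomas was 0.21 for the 74 genes and 0.24 for all genes.

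The genes with the widest spread among sarcomas were Mrps6, Mrpl20 and Mrpl41. Mrps6, a counterpart of a bacterial small subunit protein, was 8.35, 8.59, 8.98 and 9.48 in Ca/Ca sarcomas 1, 2, 3 and 5 and 9.47 and 9.39 in Ca/+ sarcomas 1 and 2, against 8.33 and 8.35 in the Ca/Ca and Ca/+ muscles. Its SD was 0.49, and its difference from muscle, 0.70, did not pass (adjusted p = 0.151). Mrpl20 (SD 0.37) was highest in Ca/Ca sarcoma 3 at 9.94 and lowest in Ca/Ca sarcoma 1 at 8.82. Mrpl41 (SD 0.35) showed the same pair of tumours at its ends, at 9.20 and 8.14.

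**Figure D5:**
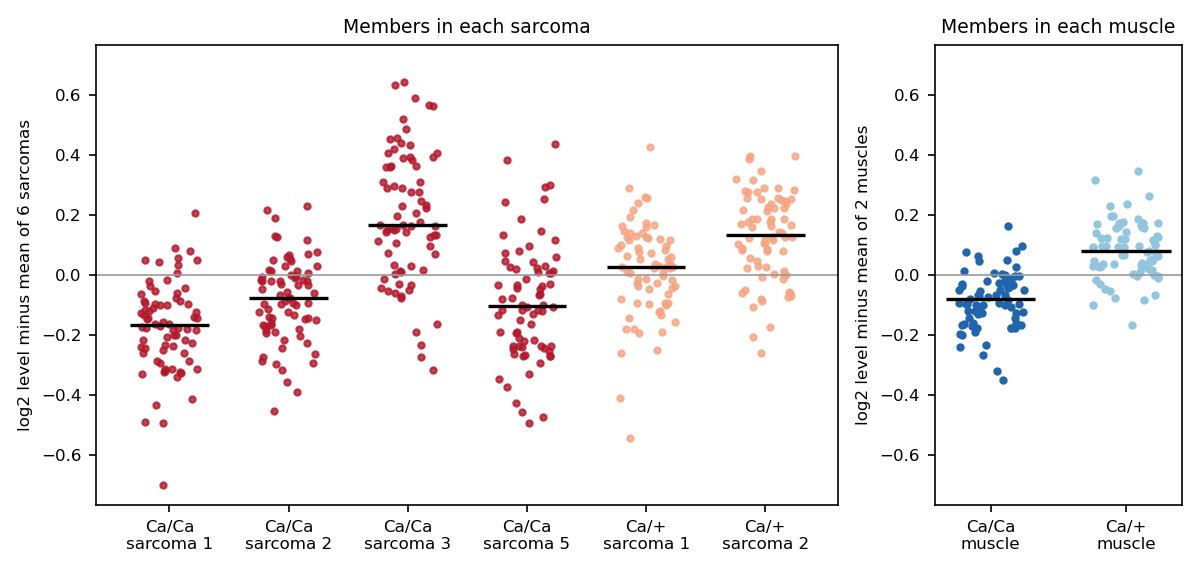
The plot of each array's deviations shows, for the 74 genes, how far every sarcoma and muscle lies from the mean of its tissue on the log2 scale. The median deviation is 0.17 in Ca/Ca sarcoma 3 and 0.14 in Ca/+ sarcoma 2, and -0.17 in Ca/Ca sarcoma 1 and -0.10 in Ca/Ca sarcoma 5.

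No mitochondrial ribosomal protein gene passed the test between Ca/Ca and Ca/+ sarcomas, where 0.0% of all genes were called (limma, 0 of 12393 genes, and 971 at an unadjusted p under 0.05). The median log2 difference, Ca/Ca minus Ca/+, was -0.13 for the 74 genes and 0.00 for all genes, and the range ran from -0.58 to 0.30. The median of the 74 was 0.01 under housekeeping centring, -0.04 under cyclic loess and -0.23 under cytosolic ribosomal protein centring. In 16 of the 74 genes (21.6%) every Ca/Ca sarcoma lay below both Ca/+ sarcomas, and in none above. Over all genes 11.3% lay below and 9.68% above. In either direction 21.0% of all genes did not overlap, near the share of the 74. Of 17 cell division genes 15 lay below without overlap, with a median of -1.19, and none was called. Their part in the differences of the 74 genes was not tested.

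Mrpl28, a counterpart of a bacterial large subunit protein, had log2 signals of 8.85, 8.99, 9.05 and 8.95 in Ca/Ca sarcomas 1, 2, 3 and 5, against 9.37 and 9.26 in Ca/+ sarcomas 1 and 2. All 4 lay below both, and the difference was -0.36 (SE 0.13, unadjusted p = 0.0285, limma adjusted p = 0.624). Mrps18b differed by -0.33 (adjusted p = 0.633) and Mrpl37 by -0.32 (adjusted p = 0.633), both without overlap. Of genes higher in Ca/Ca sarcomas the smallest p-values were those of Mrpl34 (0.30, adjusted p = 0.728), Mrpl32 (0.26, adjusted p = 0.754) and Mrpl44 (0.19, adjusted p = 0.779).

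The interaction of tissue and genotype, which asks whether the Ca/Ca minus Ca/+ difference was the same in sarcoma and in muscle, called no member, where 0.00807% of all genes were called. The 1 gene called, the Y-linked Eif2s3y, is no member and was named after its values were seen. The smallest p-values among members were those of Mrpl37 (-0.42, adjusted p = 0.834) and Mrpl45 (0.42, adjusted p = 0.855). With 1 muscle per genotype the muscles have no spread of their own in this test.

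Between the muscles 62 of the 74 genes (83.8%) were lower in the Ca/Ca muscle, with a median difference of -0.16, where 51.0% of all genes were lower. This comparison has no replicates. The genes differed from -0.70 for Mrpl45 (7.97 in the Ca/Ca one against 8.66 in the Ca/+ one) to 0.33 for Mrpl52. Mrps22 (-0.64) and Mrpl47 (-0.53) were also low in the Ca/Ca muscle, and Mrpl21 (0.20) and Mrpl42 (0.16) were high. All 15 macrophage markers were higher in the Ca/Ca muscle and all 7 adipocyte markers lower, and their part in these differences was not tested.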

How the data were processed

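RNA from 6 sarcomas and 2 muscles was hybridised to Affymetrix arrays, 1 array per sample. The deposited values are log2 signals of probe sets that the authors normalized with RMA, per the submitters' processing notes; the RMA version and any batch or scan date are not given in the sources used here. Of 22690 rows 64 were controls, and 20380 of the rest had 1 gene symbol in the platform annotation; 691 had several and 1555 were not listed. No further normalization was applied. The number of arrays limits the precision.

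Differences were fitted with limma 3.58.1 in R 4.3.3 (lmFit, eBayes) over all genes, with Benjamini-Hochberg adjustment and a threshold of 0.05: sarcoma against muscle, Ca/Ca against Ca/+ sarcoma within sarcomas, and the tissue by genotype interaction. Figures and promoter searches used Python 3.11.15 and matplotlib 3.10.9. The members and all gene lists were chosen with earlier results of these data known. Named members are, for each comparison, the largest called changes without overlap, the smallest differences and the widest spreads, or the smallest p-values where none passed, plus Mrpl12, Mrps12, Mrpl44, Mrpl58, Mrps36 and Dap3. For other lists the largest called changes are named, and all regulators. The oxidative phosphorylation subunits are an exception, with only Atpif1 named. Alternatives covered scaling, probe set choice, dim genes, array weights, genotype as covariate and leaving out each array.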

Additional observations from a re-analysis of the deposited data

Results flagged for a closer look

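Mrps22, a small subunit protein gene, was 8.80 in Ca/Ca sarcoma 3 and between 8.12 and 8.22 in the other Ca/Ca sarcomas, a gap of 0.858 of the group's range. It was 1 of 54 groups of samples examined, and chance alone marks about 5% of groups.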

How the results depend on the processing

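Against muscle, the counts of genes higher and lower in sarcoma were 0 and 21 with cyclic loess (median -0.29), 0 and 30 with cytosolic ribosomal protein centring (median -0.43), 0 and 0 with Ca/Ca arrays only (601 of all genes called) and 0 and 0 with Ca/+ arrays only (1287 called). Housekeeping centring and the mean of probe sets each left 1 higher. Leaving out each array gave 0 to 2 higher, 2 to 15 lower, medians from -0.22 to 0.00 and 1195 to 3451 genes called. For Ca/Ca against Ca/+ sarcomas, leaving out each array gave 0 members called, medians from -0.19 to -0.07 and 0 to 1 genes called (1 without Ca/+ sarcoma 1), and for the interaction 0 members, medians from -0.04 to 0.09 and 0 to 1 genes called. The interaction called 0 genes with either filter on dim genes and 13 with array weights, and its median was 0.39 with housekeeping centring, which also moved the median between the muscles to -0.39. A replicate block on tumour number called 0 members with a median of -0.20 and 1 residual degree of freedom. Same-numbered deviations correlated at -0.19 and 0.29. The deviations of the 2 Ca/+ sarcomas mirror each other around their mean, so these correlations cannot tell whether tumours are paired. The labels do not say that a number pairs samples. The interaction could not be fitted without either muscle. The cause of these shifts was not tested.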

Other observations

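Of 24 genes of mitochondrial protein import 2 were higher in sarcoma and 2 lower, with a median difference of 0.13. That is 16.7% called, where 26.3% of all genes were called. Timm8a1, a chaperone of the intermembrane space, was higher (1.18, limma adjusted p = 0.00869), and Timm23, the channel of the inner membrane, was lower (-0.87, adjusted p = 0.0114). Of 18 genes that maintain mitochondrial DNA and RNA 3 were lower and none higher, or 16.7%, where 13.2% of all genes were lower. Among them were Mterf2, a transcription factor of mitochondrial DNA (-1.17, adjusted p = 0.00378), and Fastk, which acts on mitochondrial messenger RNA (-1.12, adjusted p = 0.00074).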
